A study of Oryza sativa Japonica Group with 27 samples.

Results

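10 rice loci of nicotianamine synthesis and iron homeostasis were followed through 14 Structure-seq2 libraries of 14-day-old shoots. They are NAS1 (OS03T0307300), NAS2 (OS03T0307200), NAS3 (OS07T0689600), NAAT1 (OS02T0306401), DMAS1 (OS03T0237100), IRO2 (OS01T0952800), IRO3 (OS03T0379300), YSL2 (OS02T0649900) and the ferritins FER1 (OS11T0106700) and FER2 (OS12T0106000). All 10 were found among the 35679 loci of the deposited tables, as 13 of 42132 transcripts. The set was chosen by the counts of NAS1, which were low with dimethyl sulfate (DMS) in the standard protocol, and the other members stand with it for their role in iron homeostasis. Values of DMS in the standard protocol are therefore a description here and were not tested.

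Nicotianamine synthases (NAS) join molecules of S-adenosylmethionine into nicotianamine, a small chelator that keeps iron and other metals soluble inside the plant. Nicotianamine aminotransferase (NAAT1) and deoxymugineic acid synthase (DMAS1) turn it into deoxymugineic acid, the phytosiderophore of rice. NAS1 and NAS2 are known as genes induced by iron deficiency, whereas NAS3 is known to be lower in iron-deficient leaves, and ferritins, which store iron in plastids, are known to be induced by iron supply. The labels name no iron treatment, so none of the comparisons is one of iron supply.

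In Structure-seq2, RNA structure is probed inside the plant: DMS methylates unpaired adenine and cytosine, and reverse transcription stops at the modified base. All libraries came from poly(A)-selected RNA of japonica cultivar Nipponbare shoots, grown in soil after germination in dishes, and the values are total counts per transcript, with no positions of stops. The groups were the biotin variation with DMS and without DMS (2 libraries each), made with biotin and a streptavidin purification of the cDNA, and the standard protocol with DMS and without DMS (2 libraries each), with purification on polyacrylamide gels. A further 6 kinds, all without DMS, had 1 library each: biotin only (biotin, gel purification), Circligase (a different ligase), Ex Taq (a different polymerase in the PCR), low RT denaturation (65 °C without salt in place of 90 °C with salt), low RT reaction (50 °C in place of 55 °C) and agarose (the last purification run on agarose gels). The standard sequencing primer was used for all 14, and a custom primer gave another reading of 13, the Circligase library being the exception. Whether replicates are separate plants is not in the labels, so each p-value reflects how much these libraries varied, which may be technical variation alone.

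Totals were 29777 to 410068 counts per library with the standard primer and 27118 to 468337 with the custom primer. Values are given as counts or as CPM, the count relative to the library total scaled by TMM factors. Each count was worth 2.41 to 20.03 CPM with the standard primer, and a count of 0 allowed up to 7.22 to 60.1 CPM (3 counts, counting error only). The untreated biotin variation, replicate 1, stood apart. It had the lowest total, and all 10 members were at 0 in both readings, where the share of counts that the members took in replicate 2 would have given 13.4 counts with the standard primer and 5.85 with the custom primer. Every value of the untreated biotin variation thus rests on replicate 2 and on zeros. The counts reckoned from replicate 2 may be too high. Of its 61 member counts with the standard primer, 18 were of FER1 and 12 of FER2, which may hold a read more than once. A list of 6 loci for leaf summed to 40810 to 83540 CPM in every library, and a list of 6 for root to 0 to 44.7 CPM, with 3 of its 6 loci at 0 in all 14 libraries. The names of those loci are not paired with the identifiers in the sources used here.

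**Figure D1:**
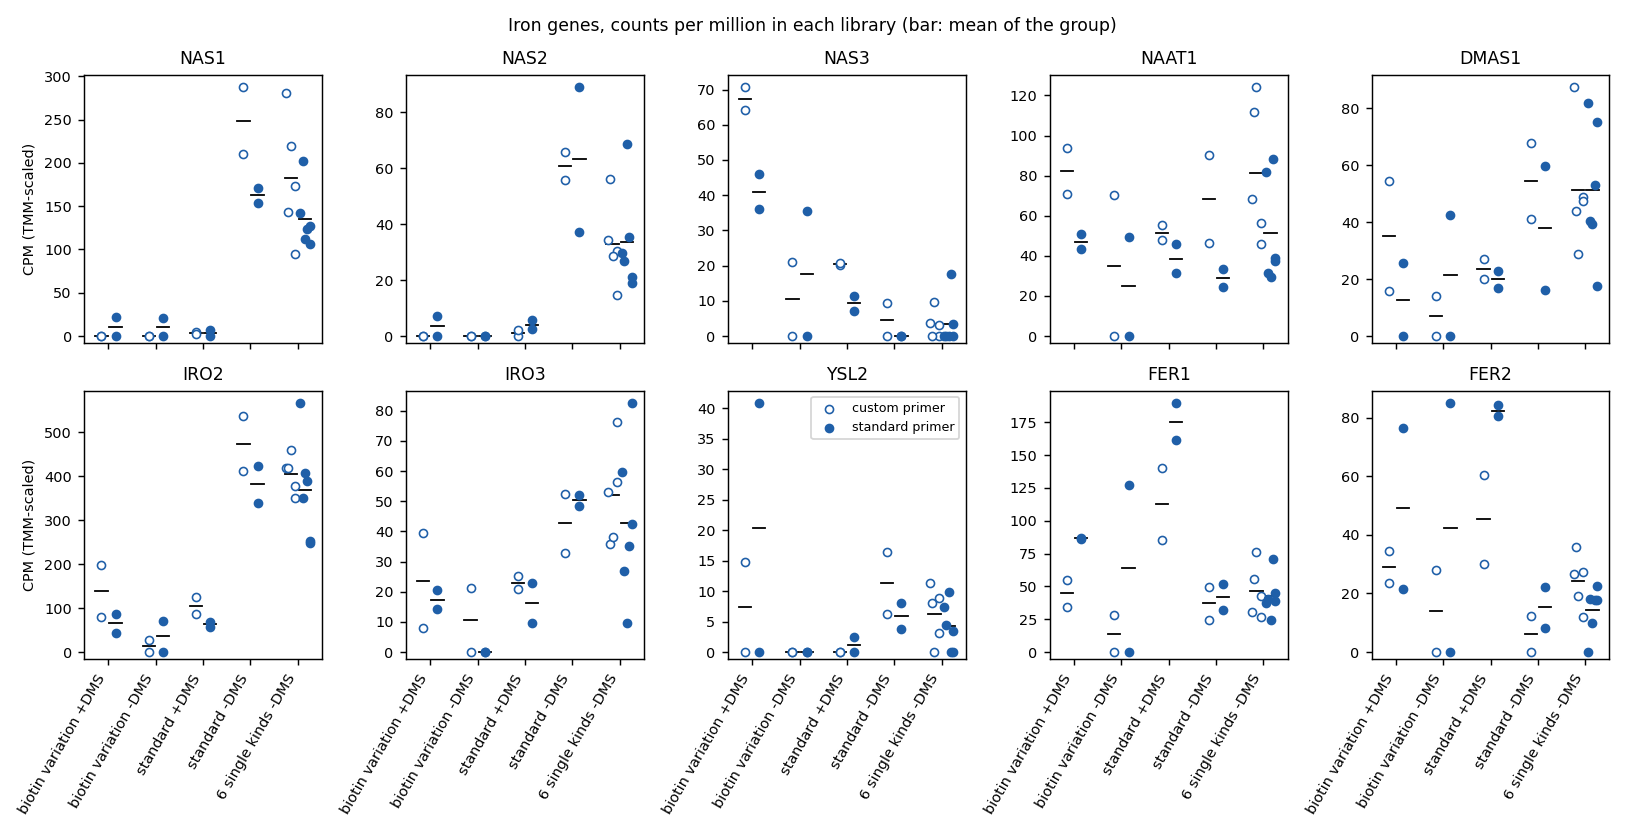
CPM of the 10 members in each library, 1 panel a gene, with groups on the x axis, custom-primer readings as open points, standard-primer readings as filled points and bars for group means. NAS1 and IRO2 are higher in the 8 untreated libraries made without streptavidin than in the other 6, and NAS1 lay there between 105.8 and 201.7 CPM with the standard primer.

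With DMS in the standard protocol, NAS1, NAS2 and IRO2 had lower CPM and both ferritins higher CPM than without it. NAS1 had 0 and 7.22 CPM with DMS, against 153.7 and 171.1 CPM without DMS, from 0 and 3 counts against 19 and 46. The custom primer gave NAS1 5.02 and 2.08 CPM with DMS, against 287.7 and 209.9 CPM without. These are the values that led to the choice of NAS1, and the groups do not overlap in either reading. The fitted log2 change was -4.91, where the median of all 6628 loci tested was 0.019, with quartiles at -0.56 and 0.59. In bulk tissue fewer cells of a type and less RNA per cell cannot be told apart. An effect of DMS on reverse transcription, and so on the counts, was not tested.

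NAS2, which lies next to NAS1 in the RefSeq gene table (assembly ASM3414082v1) and is a closely similar gene, had the same direction from fewer counts. It had 5.75 and 2.41 CPM with DMS, against 89.0 and 37.2 CPM without, a log2 change of -3.87. The custom readings of NAS2 were 0 and 2.08 CPM with DMS and 65.8 and 55.6 CPM without. NAS1 and NAS2 counts were equal in 2 of 14 standard-primer libraries and differed by up to 39, so they were not copies of each other in the table, but how reads that match both were counted is not given in the sources used here.

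IRO2, a bHLH transcription factor that activates iron deficiency genes in rice, was the member with the most counts. It had 69.0 and 57.8 CPM with DMS, from 12 and 24 counts, against 339.7 and 423.9 CPM without, from 42 and 114 counts. The log2 change was -2.60, and the custom readings (125.4 and 85.4 CPM with DMS, 411.0 and 537.1 CPM without) did not overlap either. Most of its counts were on transcript OS01T0952800-01, with 549 of the standard-primer counts, and 72 were on OS01T0952800-02.

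IRO3, a bHLH factor known as a negative regulator of the iron deficiency response in rice, had 23.0 and 9.63 CPM with DMS and 48.5 and 52.1 CPM without (log2 change -1.73). Its 2 transcripts had equal counts in all 14 standard-primer libraries and in 2 of 13 custom-primer libraries, so the summed standard count may hold each read 2 times. DMAS1 overlapped between the groups in the standard reading, at 23.0 and 16.9 CPM with DMS and 16.2 and 59.5 CPM without (log2 change -1.07). In its custom reading DMAS1 had 20.1 and 27.1 CPM with DMS and 41.1 and 67.9 CPM without. NAAT1 showed no such difference, with 46.0 and 31.3 CPM with DMS, 24.3 and 33.5 CPM without, and a log2 change of 0.33. YSL2, a transporter of metal-nicotianamine complexes, had at most 1 count in each of these 4 libraries with the standard primer.

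The ferritins lay on the other side. FER1 had 189.7 and 161.4 CPM with DMS, from 33 and 67 counts, against 32.4 and 52.1 CPM without, from 4 and 14 counts (log2 change 1.99). FER2 had 80.5 and 84.3 CPM with DMS, against 8.09 and 22.3 CPM without (log2 change 2.25). In the custom readings FER1 had 140.5 and 85.4 CPM with DMS and 49.3 and 24.7 CPM without, and FER2 had 30.1 and 60.4 CPM with DMS and 0 and 12.3 CPM without. Neither ferritin overlapped between the groups in either reading. The FER1 values are sums of 2 transcripts and may hold a read more than once. In the standard reading the 2 had nearly equal counts. In the custom reading with DMS, OS11T0106700-01 had 23 and 31 counts and OS11T0106700-02 had 5 and 10.

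NAS3 had few counts. It had 2 and 3 counts (11.5 and 7.22 CPM) with DMS, against 0 and 0 counts without, where a count of 0 allows up to 24.3 and 11.2 CPM. With the custom primer it had 4 and 10 counts (20.1 and 20.8 CPM) with DMS, against 0 and 3 counts (0 and 9.26 CPM) without. NAS3 and YSL2 did not reach 10 counts in 2 libraries of the standard-primer table and were not fitted, so 8 of the 10 members passed the filter. Of these 8, 5 had a log2 change below 0 and 3 above 0, with a median of -1.40, beside 0.019 over all loci. Over all loci, 0.0905% passed edgeR's test in either direction and 0.0905% lower, from which nothing is read here for the members.

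**Figure D2:**
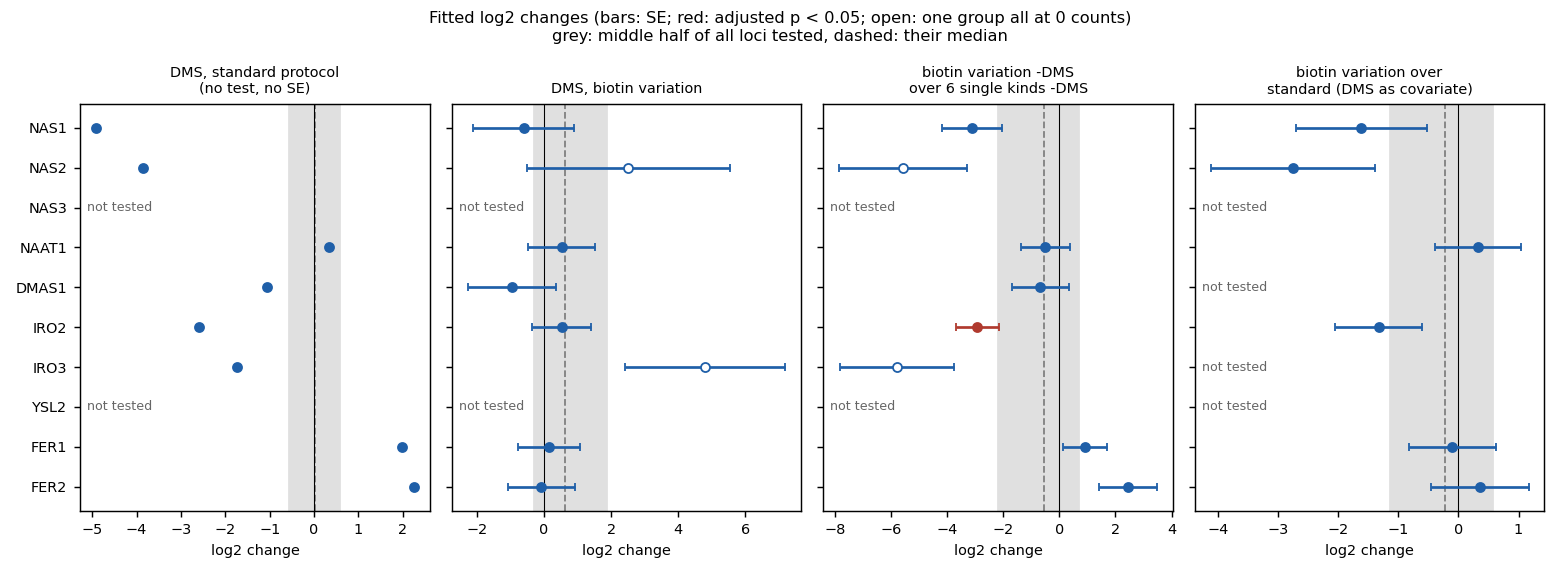
Fitted log2 changes of the members (points, with SE bars where tested) in 4 comparisons, with the range between the quartiles of all loci tested in grey and their median dashed. The standard-protocol DMS panel is a description without error bars, and IRO2 in the untreated biotin variation over the single kinds (-2.93) is the member past the threshold, in red. Open points mark a group with no count, where the fitted change depends on the prior count.

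Set beside the 8 untreated libraries made without streptavidin (standard protocol and the 6 single kinds), NAS1 and IRO2 were lower in all 6 other libraries. NAS1 had 0 and 21.6 CPM in the biotin variation with DMS, 0 and 21.3 CPM in the biotin variation without DMS, and 105.8 to 201.7 CPM (median 134.6) in those 8. NAS2 had 0 and 7.19 CPM in the biotin variation with DMS, 0 CPM in both of its libraries without DMS, and 18.8 to 89.0 CPM (median 32.6) in those 8. The zeros of NAS2 without DMS allow up to 60.1 and 21.3 CPM, so they do not show it below all of the 8. With DMS, NAS2 had 1 count in replicate 2, where 3 counts are worth 21.6 CPM, so that order is not shown either. IRO2 had 86.8 and 43.2 CPM in the biotin variation with DMS, 0 and 70.9 CPM without DMS, and 246.8 to 566.3 CPM (median 369.0) in those 8. In the custom readings NAS1 and NAS2 had no count in any of the 4 biotin variation libraries. The limits that these zeros allow are 14.8 and 23.6 CPM with DMS and 64.6 and 21.1 CPM without.

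In the standard protocol with DMS, 3 of the 10 members had both libraries below all 8 of those libraries (NAS1, NAS2 and IRO2), where 6.89% of 6628 loci did. Both ferritins lay above all 8, where 8.75% of loci did, but in the custom readings FER2 overlapped, at 30.1 and 60.4 CPM with DMS and up to 36.0 CPM in the untreated libraries. That contrast includes the libraries used to choose NAS1, and nothing is read from these counts. In the biotin variation with DMS the values of the same 3 genes lay below, where 15.8% of loci did, and those of NAS3 and FER1 above, where 14.9% did. NAS2 had 0 and 1 count there, and 3 counts are worth 21.6 CPM in replicate 2, so its order is not shown. For NAS3 the order against the agarose library is not shown, where 3 counts are worth 52.97 CPM. FER1 did not lie above in the custom readings, with 34.5 and 55.0 CPM in the biotin variation with DMS and 24.7 to 76.5 CPM in the 7 other untreated libraries. In the biotin variation without DMS, the values of NAS1, NAS2, IRO2 and IRO3 lay below, where 25.5% did, and no member lay above, where 5.07% did. For NAS2 and IRO3 those values are zeros whose limits lie above the lowest of the 8 libraries (18.8 and 9.79 CPM), so the order is not shown for them. The 8 libraries and the biotin variation differ in streptavidin purification as well as in DMS, so these 2 cannot be told apart in the DMS-treated biotin libraries.

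NAS3 had most of its counts in the biotin variation. It had 46.0 and 36.0 CPM with DMS (9 and 5 counts) and 0 and 35.4 CPM without DMS (0 and 5 counts), while the 8 other untreated libraries had 0 to 17.7 CPM with at most 1 count each. In the custom readings NAS3 had 64.2 and 70.7 CPM in the biotin variation with DMS and 0 and 21.1 CPM without. The 7 other untreated custom readings ran from 0 to 9.56 CPM. By these values the 2 biotin variation libraries with DMS were above all of those in both readings. In the standard reading the order against the agarose library is not shown. NAS3 had 1 count there, and 3 counts are worth 52.97 CPM in that library. By pooled counts of the standard reading, NAS3 in the biotin variation with DMS was 24.4 times its level in the 6 single kinds. The counting interval was 5.61 to 221, from 14 and 2 counts. YSL2 had 8 and 0 counts in the biotin variation with DMS, none in either library without DMS, and at most 2 in the 8 other untreated libraries, so its groups overlap.

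The untreated biotin variation was tested against the mean of the 6 single kinds, libraries that took no part in choosing NAS1. IRO2 fell to 35.4 ± 50.1 CPM (SD, n = 2), against 368.1 ± 118.1 CPM in the single kinds (SD, n = 6), with a log2 change of -2.93 (edgeR adjusted p = 0.0255, SE 0.769) and with both biotin libraries below all 6. The 11 alternatives gave adjusted p-values of 0.00222 to 0.0307 for IRO2, but its size depended on the libraries, with a log2 change of -4.28 in the custom readings, -2.31 without replicate 1 and -9.10 without replicate 2, which leaves the library at 0. NAS1 had 10.6 ± 15.03 CPM, against 135.5 ± 34.7 CPM (log2 change -3.11 with an SE of 1.07, edgeR adjusted p = 0.0678). It passed the threshold in 4 of 10 alternatives and did not in the other 6. Those passed were the custom readings (edgeR adjusted p = 0.00358), the summed readings (0.0229), single transcripts (0.0372) and the sum with NAS2. That sum, given below, is not a result for NAS1 alone. NAS2 and IRO3 had no count in either untreated biotin library, so their fitted changes depend on the prior count. Their edgeR adjusted p-values were 0.114 and 0.0744. For NAS2 the ratio of pooled CPM to the single kinds had a counting interval of 0 to 0.641, from 0 and 37 counts. No such interval is given for IRO3, whose summed counts may hold each read 2 times.

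FER1 and FER2 did not pass in that comparison. FER1 had 0 and 127.5 CPM in the untreated biotin variation, against 24.5 to 70.6 CPM in the single kinds (log2 change 0.92 with an SE of 0.777, edgeR adjusted p = 0.475). FER2 had 0 and 85.0 CPM, against 0 to 22.5 CPM (log2 change 2.45 with an SE of 1.04, edgeR adjusted p = 0.123). Without the biotin library at 0, replicate 1, FER2 passed with a log2 change of 3.12 (edgeR adjusted p = 0.0403). That fit sets 1 biotin library against kinds of 1 library each, so the spread comes from the other groups and the lone library is assumed to vary as they do. In the custom readings neither ferritin lay above the single kinds. There FER1 and FER2 each had 0 and 28.1 CPM in the untreated biotin variation, and the single kinds had 26.6 to 76.5 CPM of FER1 and 11.8 to 36.0 CPM of FER2. NAAT1 and DMAS1 had log2 changes of -0.49 and -0.68 (SE 0.868 and 1.02, edgeR adjusted p = 0.797 and 0.743).

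In all, 1 of the 8 members fitted passed, lower, where 10.7% of 6628 loci passed in either direction, 6.37% lower and 4.32% higher, so the share of members called was near the background. The median log2 change of the 8 was -1.81, beside -0.55 over all loci, which was -0.42 under RLE scaling and -0.22 under scaling by totals. Counted as the sum of NAS1 and NAS2, a feature chosen after the data were seen, the pair had a log2 change of -3.43 (edgeR adjusted p = 0.0455).

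DMS in the biotin variation gave 0 calls among the 8 members fitted, with 0 at an unadjusted p under 0.05. DESeq2 gave an adjusted p for NAS1, IRO2 and FER1 alone and called none of these 3. Of all 6628 loci, 0.136% passed, 0.0302% higher and 0.106% lower. IRO2 had 86.8 and 43.2 CPM with DMS, against 0 and 70.9 CPM without (log2 change 0.53 with an SE of 0.884, edgeR adjusted p = 0.796). Its custom readings were 197.4 and 78.6 CPM with DMS and 0 and 28.1 CPM without, which do not overlap (log2 change 2.78, adjusted p = 0.0899). NAS1 had 0 and 21.6 CPM, against 0 and 21.3 CPM (log2 change -0.61 with an SE of 1.5, edgeR adjusted p = 0.875), so at 3 counts on each side no difference was detectable at this depth. FER1 had 86.8 and 86.3 CPM, against 0 and 127.5 CPM (log2 change 0.16 with an SE of 0.925, edgeR adjusted p = 0.960). FER2 had 76.6 and 21.6 CPM, against 0 and 85.0 CPM (log2 change -0.077 with an SE of 1.01, edgeR adjusted p = 0.989). IRO3 had 20.4 and 14.4 CPM with DMS and no count without it (edgeR adjusted p = 0.295). The median log2 change of the 8 was 0.34 and that of all loci 0.62, or 0.33 under RLE scaling and 0.18 under scaling by totals.

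The protocols were then compared over 4 libraries each with DMS as a covariate. This comparison shares its standard libraries with the contrast that chose NAS1. The fit has a common protocol term for both DMS states, so it averages gaps that may differ between them. Mean NAS1 in the standard protocol and the biotin variation was 162.4 and 10.6 CPM without DMS, but 3.61 and 10.8 CPM with DMS. For IRO2 the means were 381.8 and 35.4 CPM without DMS, and 63.4 and 65.0 CPM with DMS. The protocols were not tested within each DMS state. No member of the 6 fitted passed with edgeR, with 0 at an unadjusted p under 0.05 and 0 with DESeq2, where 4.1% of 5530 loci passed, 2.08% higher and 2.03% lower. The log2 changes of NAS1, NAS2 and IRO2 were -1.61, -2.76 and -1.32 (SE 1.09, 1.36 and 0.725, edgeR adjusted p = 0.382, 0.226 and 0.275). NAS1 passed in the custom readings, with a log2 change of -7.04 (adjusted p = 0.00189), where its 4 biotin variation libraries were at 0. FER1, FER2 and NAAT1 had log2 changes of -0.10, 0.36 and 0.32 (SE 0.722, 0.808 and 0.716, edgeR adjusted p = 0.945, 0.819 and 0.817). The median over all loci was -0.23, or -0.42 under RLE scaling and -0.33 under scaling by totals.

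**Figure D3:**
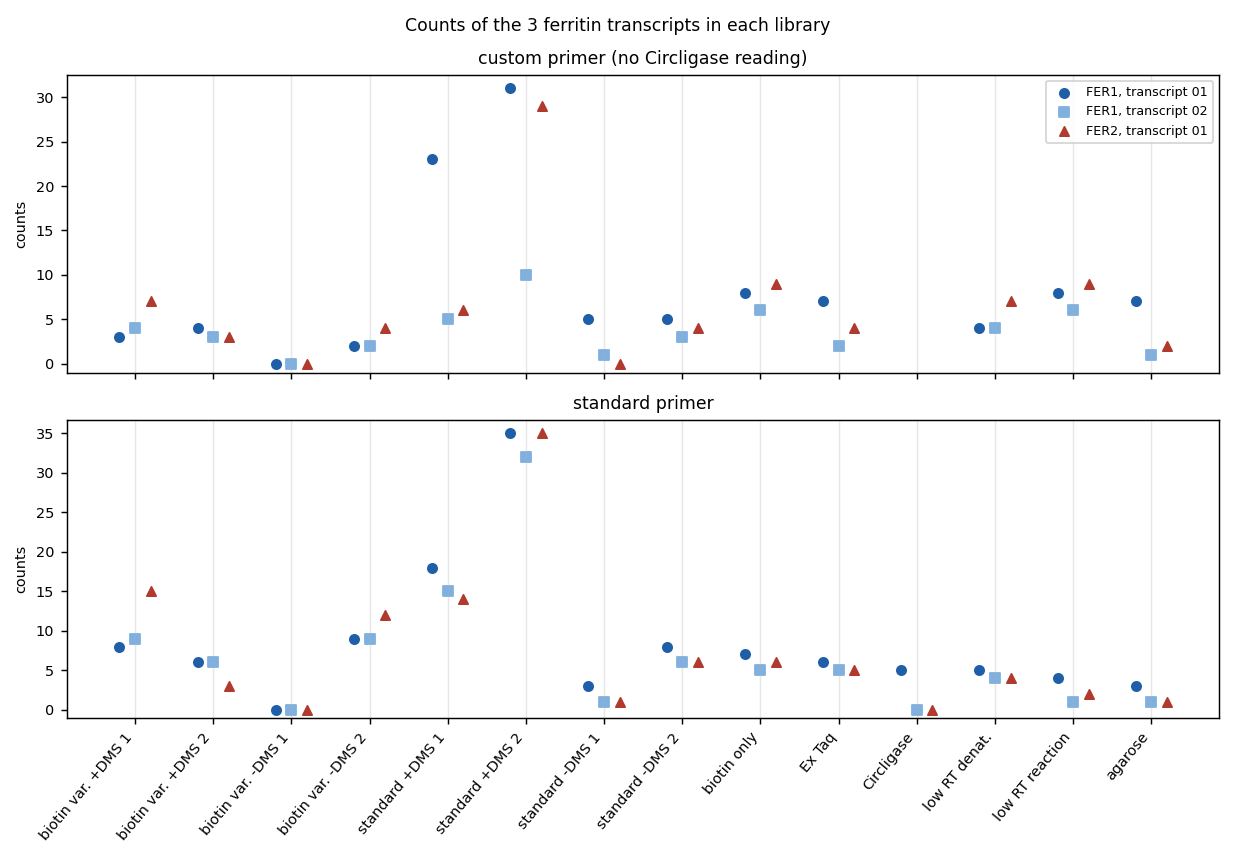
Counts of FER1 transcripts 01 and 02 and FER2 transcript 01 in each library, custom primer above and standard primer below. The 3 lie within 7 counts of each other in every standard-primer library, and the standard library with DMS, replicate 2, reaches 35.

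FER1 and FER2 are a near-identical pair, and their counts cannot be taken as independent. In the standard-primer table the 2 transcripts of FER1 differed by at most 5 counts in each library, and FER2 differed from them by at most 7 and 6. Summed over libraries they had 117, 94 and 104 counts. The custom-primer table separated them more, with 107, 47 and 84 counts and gaps of up to 21 between the transcripts of FER1. A change of 1 ferritin gene thus cannot be told apart from a change of the other.

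Among the 6 single kinds NAS1 ran from 105.8 CPM with Ex Taq to 201.7 CPM with low RT denaturation, a range that includes the untreated standard libraries. IRO2 ran from 246.8 CPM with Ex Taq to 566.3 CPM with Circligase. The biotin only library, which shares the added biotin with the biotin variation but was purified on gels, had 127.6 CPM of NAS1 and 251.5 CPM of IRO2, and 82.6 CPM of IRO3, the highest of the 8. With 1 library a kind these values have no replicate check.

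The custom primer was compared with the standard primer over 13 libraries, with library as a block. NAAT1 was higher with the custom primer (log2 change 0.61 with an SE of 0.196, edgeR adjusted p = 0.0125) and FER1 lower (log2 change -0.74 with an SE of 0.203, edgeR adjusted p = 0.00392). FER1 sums 2 transcripts, with 117 and 94 counts in the 14 standard readings and 107 and 47 in the 13 custom readings. A part of read assignment in the FER1 difference was not tested. For IRO2 the log2 change was 0.24 ± 0.111 (SE) and for FER2 -0.63 ± 0.268 (SE), with edgeR adjusted p = 0.0823 and 0.0562. NAS1, NAS2, NAS3, DMAS1 and IRO3 lay between -0.18 and 0.50 and did not pass, and YSL2 was not fitted. So 2 of 9 members passed, 1 in each direction, where 39.4% of 8897 loci did, 18.3% higher and 21.1% lower.

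**Figure D4:**
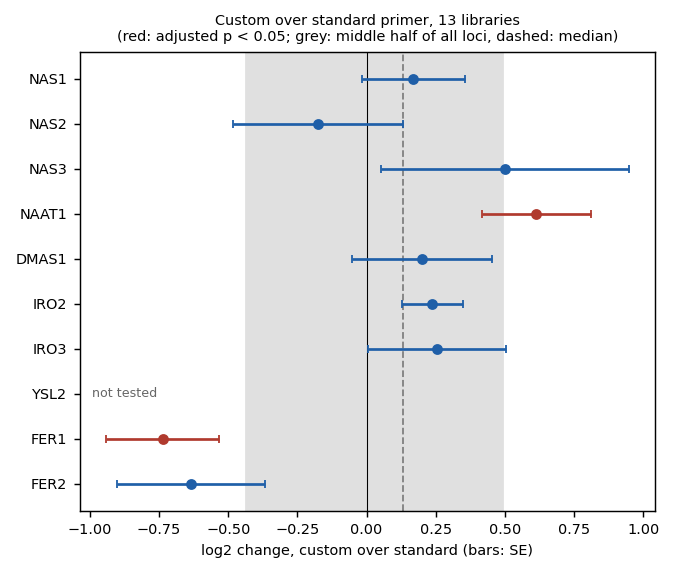
Log2 change of each member, custom over standard primer (points, with SE bars), over 13 libraries, with the range between the quartiles of all loci in grey and their median, 0.13, dashed. NAAT1 lies to the right at 0.61 and FER1 to the left at -0.74.

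Other iron genes were taken from a list of 34 loci written from general knowledge, whose names the sources used here do not pair with the identifiers. Of these, 32 were in the tables and 17 were fitted over the 14 libraries. In the untreated biotin variation over the single kinds, 4 of the 17 passed, all lower, where 6.37% of loci were lower, and the median of the 17 was -0.79, beside -0.55 over all loci. OS01T0647200 had 160.3 and 233.8 CPM in the untreated biotin variation, against 446.7 to 1587 CPM in the single kinds (log2 change -1.94 with an SE of 0.506, edgeR adjusted p = 0.0243). OS07T0142100 had 20.03 and 0 CPM, against 146.4 to 1184 CPM (log2 change -6.08 with an SE of 1.05, edgeR adjusted p = 0.0042). OS04T0444800 had 0 and 28.34 CPM, against 88.08 to 231 CPM, and lay close to the threshold (edgeR adjusted p = 0.04913). OS07T0258400 had no count in either untreated biotin library, against 90.09 to 224.1 CPM (edgeR adjusted p = 0.02749). Its log2 change of -7.99 thus depends on the prior count. The alternatives were read for the members and not for this list. With DMS in the biotin variation 0 of the 17 passed with edgeR, with 2 at an unadjusted p under 0.05. With DMS in the standard protocol, which was not tested, 14 of the 17 had a log2 change below 0, with a median of -0.73 beside 0.019.

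The similarity of other genes to NAS1 was measured as Pearson's r of log2(CPM + 1) over the 14 standard-primer libraries, as a description across libraries that fall into protocol groups and differ in depth. The 14 include the standard libraries whose DMS contrast led to the choice of NAS1. Of the members, NAS2 (0.826) and IRO2 (0.771) were most like NAS1, and 1.4% and 3% of 1567 loci with a mean of at least 20 counts had a higher r. NAS1 and NAS2 had means of 16.6 and 4.36 counts, below that minimum, so the share for NAS2 is not a like comparison. IRO3 (0.531), DMAS1 (0.498) and NAAT1 (0.409) had lower values, YSL2 (0.105) and FER1 (0.0805) were near 0, and FER2 (-0.209) and NAS3 (-0.48) were below 0. Of the loci most like NAS1, the first were OS01T0582600 (r = 0.884) and OS02T0744900 (r = 0.877), which have no name in the sources used here. OS01T0600900, a locus of the leaf list, came next with r = 0.871. It had 1619 and 1762 CPM in the biotin variation with DMS, 601.0 and 2203 CPM without DMS, 2190 and 814.0 CPM in the standard protocol with DMS, and 9284 to 24650 CPM in the 6 single kinds. The part of the protocol or of the tissue in this shared pattern was not tested.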

How the data were processed

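Counts per transcript, whole numbers, were deposited by the authors in 1 table for each sequencing primer, with library letters per the file headers. Of tools, cutadapt and Bowtie2 appear in the submitters' processing notes, and their versions, the genome build, the annotation and how reads were assigned to transcripts were not given in the sources used here. Symbols of the 10 members were given with their identifiers, and no identifier matched the RefSeq gene table directly. Sequences were not used here. There were 0 columns outside the labels.

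Counts were summed per locus. Loci with at least 10 counts in at least 2 fitted libraries were tested with edgeR 4.0.16 (quasi-likelihood, TMM factors, Benjamini-Hochberg, threshold 0.05) in R 4.3.3. SEs are the log2 change over the square root of F. DMS and the single kinds used 1 fit of 14 libraries with a mean per kind (4 residual degrees of freedom), the protocols used 8 libraries, and the primers 26 columns with library as a block. The standard-primer table was the main one. Bounds use 3 counts. Scripts were tested on simulated data. The members, the lists and the naming rule (all members, list loci called, loci most like NAS1) were chosen with earlier results of these data known. Alternatives were RLE factors, library totals, no filter, 50 counts, DESeq2 1.42.0, custom or summed readings, single transcripts, leaving out libraries, a replicate block and, added after the data were seen, 8 replicated libraries without block and near-identical copies summed. Copies summed were NAS1 with NAS2 and FER1 with FER2, each pair as 1 feature. With single transcripts, each member was read from its transcript with the lowest adjusted p.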

Additional observations from a re-analysis of the deposited data

Results flagged for a closer look

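IRO3 had lower CPM in both standard libraries with DMS than in both without, while in the biotin variation it had 20.4 and 14.4 CPM with DMS and no count without DMS. The log2 changes were -1.73 in the standard protocol and 4.81 in the biotin variation. The difference was not tested, since the first contrast led to the choice of the set. The untreated biotin variation had no IRO3 count with the standard primer, so the fitted 4.81 depends on the prior count. Those zeros allow up to 60.1 and 21.3 CPM, more than the values with DMS, so they do not show that IRO3 was higher with DMS. In the custom readings the groups overlap, at 39.5 and 7.86 CPM with DMS and 0 and 21.1 CPM without, and the log2 change was 0.75 (edgeR adjusted p = 0.725).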

How the results depend on the processing

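Members called in the untreated biotin variation over the single kinds numbered 1, and 2 in the custom readings, 3 in the summed readings, 2 with single transcripts, 2 with copies summed, and 1 to 2 leaving out a library. For the protocols, 0 members were called, 1 in the custom readings and 0 leaving out each library in turn. For the primer it was 2 (NAAT1 and FER1), 3 with library totals and 3 with single transcripts (both adding IRO2), and 0 without the library block. It was 1 with a minimum of 50 counts, which is IRO2 (edgeR adjusted p = 0.00636), since NAAT1 and FER1 were not tested there. With single transcripts the IRO2 call is for 1 of its 2 transcripts. OS01T0952800-01 had 549 counts in the 14 standard readings and 813 in the 13 custom readings, and OS01T0952800-02 had 72 and 36. DMS in the biotin variation gave 0 members under all 15 alternatives, DESeq2 covering 3 of the 8. Over all loci the calls ranged from 0 to 592 (main 9), 322 to 1491 (708), 6 to 901 (227) and 662 to 5310 (3508) in DMS in the biotin variation, single kinds, protocols and primer. The share of calls that were higher was 22.2%, 40.4%, 50.7% and 46.4% in that order with TMM factors, 13.8%, 46.4%, 30.2% and 46.2% with RLE factors, and 7.69%, 56.9%, 36.7% and 63.4% with library totals.

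Signs turned only for members that were not called. For DMS in the biotin variation FER1 was at -0.094 with RLE factors, -0.24 with library totals and -0.093 with the 8 replicated libraries, FER2 at 0.10 with no filter and 0.14 in the summed readings, and DMAS1 at 1.81 in the custom and 0.38 in the summed readings. Leaving out libraries gave -4.64 to 4.01 for NAS1, -0.064 to 6.30 for NAAT1, -5.55 to 4.63 for DMAS1, -0.11 to 6.79 for IRO2, -0.56 to 7.16 for FER1 and -1.37 to 6.42 for FER2. Over the single kinds FER1 was at -1.07 in the custom readings, and leaving out libraries gave -6.19 to 0.10 for NAAT1, -6.01 to 1.63 for FER1 and -3.95 to 3.12 for FER2. Between protocols NAAT1 was at -0.064 with no filter and FER1 at 0.085 with copies summed, and leaving out libraries gave -0.022 to 0.45 for NAAT1, -1.20 to 0.084 for FER1 and -0.80 to 0.82 for FER2. The causes were not tested.

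Replicate numbers did not pair the libraries (r of deviations from -0.0671 to 0.159 over 6 pairs of groups). With the replicate block 0 members were called for DMS in the biotin variation and 0 between protocols, and the calls over all loci were 6 and 36. A minimum of 50 counts left no member to test between protocols. Depth limits every member, IRO2 included, since 1 count is worth up to 20.03 CPM and the untreated biotin variation rests on 1 library with counts. Leaving out 1 of its libraries sets a lone library against the rest, whose spread it is assumed to share.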
